A study of Mus musculus with 2 samples.

Results

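The serpins are a large family of proteins, most of which inhibit serine or cysteine proteases. Their mRNA was followed in apoE-KO liver with probes whose gene name on the array starts with Serpin. Described here are 71 probes for 53 of the 27962 gene names on the array: 20 genes of clade A, 24 of clade B, 2 each of clades F and I, and 1 each of clades C, D, E, G and H. The members were selected by name alone, but the family and Serpina4-ps1 were chosen by their diet differences on these same arrays, so the differences between the diets are given as a description. Limma's calls of members come from a fit over all genes and are likewise no independent evidence, and no p-value is printed for a member. The 6 one-colour arrays held liver RNA of male apoE-KO mice (apoE-/-, C57BL/6), 3 from independent experiments with normal chow and 3 from experiments with the same chow plus 1.25% Chol (high-Chol diet), fed for 1 week from 10 weeks of age. All mice lacked intact apoE, and no mice with the intact gene were analysed here. Nothing in the labels says how many livers went into an array.

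A serpin inhibitor offers a protease an exposed loop as bait, and cleavage of the loop traps the protease in an inactive complex. Hepatocytes secrete many clade A serpins, antithrombin and the plasmin and complement inhibitors in large amounts, and these serpins hold the plasma proteases of clotting, fibrinolysis, complement and inflammation in check. Clade B serpins mostly stay inside the cell and are known from leukocytes and epithelia. A few members, such as the carriers of corticosteroids and thyroxine and the collagen chaperone Hsp47, do not inhibit proteases.

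Serpina4-ps1, which RefSeq (GRCm38.p6) lists as a transcribed pseudogene, has 2 probes on chromosome 12. They share 31 bases, so they are not independent measurements.

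The probes for Serpina1b and Serpina1e are printed here 5′ to 3′, with positions from the array annotation (mouse build mm7), because these genes are close copies of each other. The accessions listed for the Serpina1e probe belong to Serpina1b, Serpina1c, Serpina1d and Serpina1e in RefSeq, so its signal cannot be given to 1 gene. Serpinb6c is shown as the clade B gene that limma called. In mm7 the probes lie at chr12:101224607-101226106 (Serpina1b, where the listed span is longer than the probe), chr12:101445204-101445263 (Serpina1e) and chr13:33298268-33298326 (Serpinb6c), and no base is in capitals.
Serpina1b: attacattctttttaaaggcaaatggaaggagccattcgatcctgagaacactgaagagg
Serpina1e: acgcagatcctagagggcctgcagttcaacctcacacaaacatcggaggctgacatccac
Serpinb6c: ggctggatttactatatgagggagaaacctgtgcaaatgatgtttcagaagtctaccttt

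Values are the log2 of the background-subtracted signal minus the 75th percentile of the array, so 0 is the 75th percentile, and a difference is the high-Chol diet minus normal chow. All 3 normal chow arrays and 1 high-Chol array were on slide 1, and the other two high-Chol arrays were on slide 2, whose 75th percentiles (799 and 762) were above those of slide 1 (271 to 373). Differences of the high-Chol array of slide 1 from the mean of normal chow are therefore given for the members described array by array. On the probe for Apoe, the disrupted gene, the 6 arrays read between 1.66 and 3.81, which checks no label because every mouse was apoE-KO. Genes whose probe exceeded background clearly (the software's well-above-background mark) in every array of 1 diet or of both were kept, which left 34 serpin genes. Of these, 29 had the mark in all 6 arrays and 5 passed through the high-Chol diet alone (Serpina3b, Serpinb1b, Serpinb8, Serpinb9e and Serpini2). In bulk liver RNA, fewer cells of a type and less RNA per cell cannot be told apart.

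Of the 34 serpin genes, 16 were higher and 18 lower on the high-Chol diet, with a median log2 difference of -0.20, against -0.02 over all 16730 genes. Of the 29 well above background on all 6 arrays, 11 were higher and 18 lower. Their median was -0.32, against -0.07 over all genes that pass that filter. Limma called 2 of the 34 at an adjusted p under 0.05, Serpinb6c as higher and Serpina4-ps1 as lower. Over all genes, 2.92% were called (2.69% higher and 0.227% lower). The values of the diets did not overlap for 6 serpin genes that were higher and 14 that were lower, against 11.6% and 13.7% of all genes. Since the family was chosen with these differences in view, nothing is read from these counts.

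**Figure D1:**
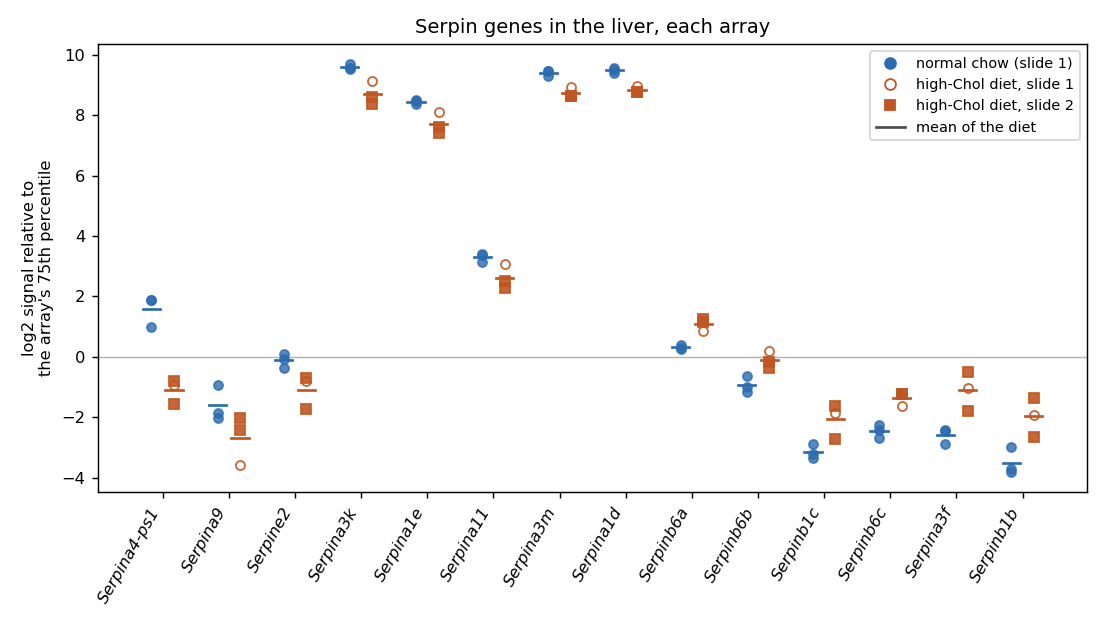
Log2 signal minus the array's 75th percentile (y axis) for the 14 serpin genes that limma called or whose diets did not overlap and differed by over 1.5-fold (x axis, by difference). Points are arrays (circles, slide 1; squares, slide 2) and lines are the means of the 3 arrays of a diet; Serpina4-ps1 fell from 1.58 to -1.10 and Serpinb6c rose from -2.45 to -1.35.

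Serpina4-ps1 had the largest decrease of the 34 genes. Its brighter probe read 0.99, 1.87 and 1.88 with normal chow, against -0.94, -1.57 and -0.79 with the high-Chol diet. Every high-Chol array was below every normal chow array, and the mean fell from 1.58 ± 0.51 (SD, n = 3) to -1.10 ± 0.41 (SD, n = 3), which is 6.39-fold lower (log2 difference -2.68, standard error 0.31). The high-Chol array of slide 1 alone was lower than the mean of normal chow by a log2 difference of -2.52. The other probe gave -3.53, also without overlap. Both probes had the well-above-background mark throughout. The call was lost with a normexp background, without the filter, with slide as a block, in the methods' t-test after adjustment and without normal chow array 2. The normexp alternative replaces the software's background subtraction and also adds an offset of 50 to every signal. In the authors' deposited values, 1 per diet, the brighter probe differed by -2.92.

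Among the other clade A genes, 11 were lower and 4 higher, and the median of all 16 kept genes of the clade was -0.63. The α1-antitrypsin genes that were kept were all lower. Serpina1e read 8.48, 8.36 and 8.49 with normal chow, against 8.11, 7.42 and 7.61 with added Chol, a difference of -0.73 (standard error 0.21). Serpina1d read 9.48, 9.56 and 9.40 against 8.97, 8.77 and 8.78, a difference of -0.64 (standard error 0.14). Neither gene overlapped between the diets. For Serpina1b the difference was smaller, -0.19 (standard error 0.15), and it turned to 0.03 with a normexp background. The Serpina1d probe, like that of Serpina1e, is listed with accessions of several Serpina1 genes.

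The Serpina3 genes, relatives of α1-antichymotrypsin, went both ways. Serpina3k, the kallikrein-binding protein, read 9.54, 9.56 and 9.68 with normal chow, against 9.14, 8.36 and 8.59 with added Chol, a difference of -0.89 (standard error 0.22). Its other probe, 6.98, 7.15 and 6.93 against 6.59, 7.20 and 7.27, gave -0.00 and overlapped. On the dimmer probe the high-Chol array of slide 1 read 6.59, below the normal chow mean of 7.02. The arrays of slide 2 read 7.20 and 7.27. The probes of Serpina3k thus disagreed, mainly on slide 2, and its difference rests on the brighter. Serpina3m read 9.29, 9.46 and 9.46 against 8.93, 8.64 and 8.64, a difference of -0.67 (standard error 0.16) without overlap. Serpina3n had the same difference, -0.67, but overlapped, and Serpina3c differed by -0.26 with overlap.

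Serpina3f, Serpina3g and Serpina3b were higher on the high-Chol diet. Serpina3f read -2.87, -2.43 and -2.45 with normal chow, against -1.03, -0.50 and -1.79 with added Chol, which is 2.78-fold higher (log2 difference 1.47, standard error 0.33) without overlap. Its probes gave 1.47 and 1.49, and the high-Chol array of slide 1 differed by 1.55, against 1.44 on slide 2. Serpina3g, an intracellular inhibitor of cysteine proteases, differed by 0.87 and Serpina3b by 0.77, both with overlap. With a normexp background Serpina3f differed by 0.15 and Serpina3b by -0.55, while Serpina3g stayed at 0.89.

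The hormone carriers of clade A did not move together. Serpina6, the corticosteroid-binding globulin, read 4.95, 6.46 and 6.26 with normal chow, against 5.26 and 5.26 on 2 high-Chol arrays; its spot on the third was marked as an outlier and left out, and the difference was -0.63 (standard error 0.46). Serpina7, the thyroxine-binding globulin, was higher by 0.67 (standard error 0.25), with overlap. Of the remaining clade A genes, Serpina11 read 3.41, 3.36 and 3.13 with normal chow, against 3.08, 2.28 and 2.50 with added Chol, a difference of -0.68 (standard error 0.23), which was -0.22 within slide 1 and -0.91 for the arrays of slide 2. Serpina9, known from germinal center B cells, read -0.93, -1.85 and -2.01 against -3.57, -2.43 and -2.01, a difference of -1.08 (standard error 0.45). The nearest arrays of the diets were equal to 2 decimals in Serpina9, so its lack of overlap is marginal, and its difference was -1.98 within slide 1 but -0.63 for the arrays of slide 2.

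**Figure D2:**
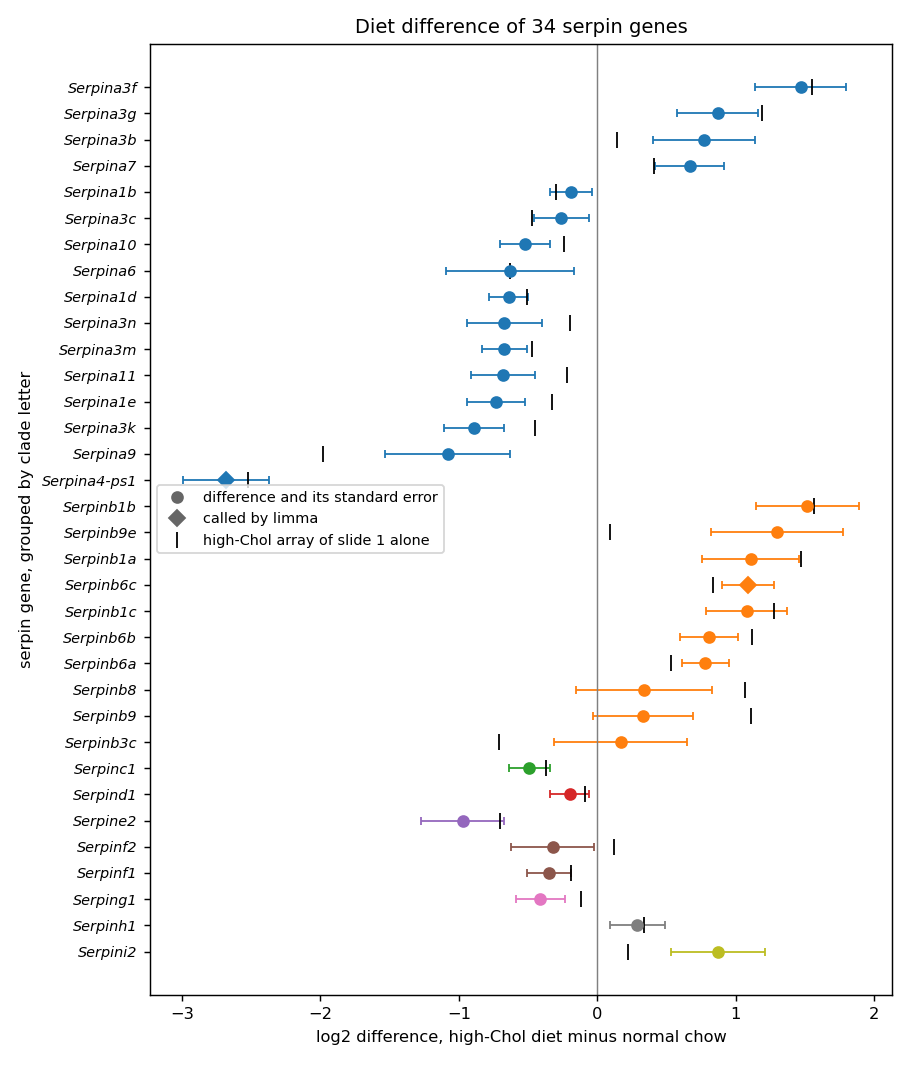
Log2 difference between the diets (x axis) for 34 serpin genes (y axis, grouped by clade and colored by it), with standard errors from limma; diamonds are genes called by limma and vertical ticks the high-Chol array of slide 1 minus the mean of normal chow. The 10 clade B genes lie to the right of 0, 3 of them (Serpinb1b, Serpinb8 and Serpinb9e) kept through the high-Chol diet alone, and 12 of the 16 clade A genes lie to the left.

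Inhibitors of clotting, fibrinolysis and complement made by the liver were lower by small amounts. Serpina10, which inhibits factor Xa with protein Z, differed by -0.52 (standard error 0.18). For Serpinc1 (antithrombin) the difference was -0.49 (standard error 0.15), for Serping1 (C1 inhibitor) -0.41 (standard error 0.18) and for Serpind1 (heparin cofactor II) -0.20 (standard error 0.14). These 4 genes did not overlap between the diets, against 13.7% of all genes that were lower without overlap, and limma called none of them. The second probes of Serpina10 and Serpinc1 gave -0.50 and -0.25. Serpinf2 (α2-antiplasmin), with 1 outlier spot left out, differed by -0.32 over 5 arrays, and the high-Chol array of slide 1 was above the mean of normal chow by 0.12. Serpinf1, the pigment epithelium-derived factor, differed by -0.35 (standard error 0.16). With a normexp background Serpind1 turned to 0.10 and Serpinf2 to 0.24.

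Many of these differences were smaller on slide 1. The high-Chol array of slide 1 differed from the mean of normal chow by -0.12 for Serping1, -0.24 for Serpina10, -0.33 for Serpina1e and -0.45 for Serpina3k, whereas the arrays of slide 2 gave -0.56, -0.66, -0.93 and -1.12. Without the array of slide 1, limma called 13 serpin genes instead of 2, among them these 4 genes, while calls over all genes went from 488 to 3077 (18.4%). With slide as a block, where 1 high-Chol array stands against the 3 normal chow arrays, it called 0 serpin genes (13 at an unadjusted p under 0.05) and 11 of all genes. For Serpina1d and Serpina3m the array of slide 1 gave -0.51 and -0.47, and the arrays of slide 2 -0.70 and -0.77. The part of the slide in these differences was not tested.

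Serpine2, protease nexin-1, read -0.35, 0.11 and -0.08 with normal chow, against -0.80, -1.73 and -0.70 with added Chol, a difference of -0.97 (standard error 0.30) without overlap. The high-Chol array of slide 1 differed by -0.70 and the arrays of slide 2 by -1.11.

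Of the 24 clade B genes, 10 were kept. All 10 were higher on the high-Chol diet, with a median difference of 0.95, and 5 of them did not overlap between the diets, against 11.6% of all genes that were higher without overlap. Serpinb1b, Serpinb8 and Serpinb9e passed the filter through the high-Chol diet alone, where they were higher; the 7 clade B genes well above background on all 6 arrays were also higher, with a median of 0.81. Serpinb6c read -2.43, -2.24 and -2.67 with normal chow, against -1.61, -1.21 and -1.24 with added Chol, which is 2.14-fold higher (log2 difference 1.09, standard error 0.19). The high-Chol array of slide 1 differed by 0.84 and the arrays of slide 2 by 1.22. Its call was lost with median scaling, with a normexp background (difference 0.12), without the filter, with slide as a block, in the methods' t-test after adjustment, and when any array but the high-Chol one of slide 1 was left out. Serpinb6a, an inhibitor of cathepsin G and other proteases, read 0.30, 0.40 and 0.26 against 0.85, 1.17 and 1.27, a difference of 0.78 (standard error 0.17). Serpinb6b read -0.64, -0.99 and -1.15 against 0.19, -0.18 and -0.35, a difference of 0.81 (standard error 0.21). All 3 Serpinb6 genes were thus higher on every high-Chol array than on any normal chow array. On slide 1 the high-Chol array differed by 0.53 for Serpinb6a and 1.12 for Serpinb6b, against 0.90 and 0.66 on slide 2.

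The Serpinb1 genes are counterparts of the human leukocyte elastase inhibitor. Serpinb1b read -3.70, -3.81 and -2.98 with normal chow, against -1.92, -1.36 and -2.64 with added Chol, a difference of 1.52 (standard error 0.37). Its other probe, not well above background on any array, gave -1.27. Serpinb1c read -3.33, -3.21 and -2.89 against -1.86, -1.63 and -2.70, a difference of 1.08 (standard error 0.29). On slide 1 the high-Chol array differed by 1.57 for Serpinb1b and 1.28 for Serpinb1c. Serpinb1a differed by 1.11 but overlapped, since 1 high-Chol array read 1.11 and 1 normal chow array 1.15. Differences of 1.30 for Serpinb9e, 0.34 for Serpinb8, 0.33 for Serpinb9, which inhibits granzyme B, and 0.17 for Serpinb3c came with overlap. In Serpinb9e the high-Chol array of slide 1 differed by 0.09, and in Serpinb3c by -0.71. Serpinb8 and Serpinb9 differed by 1.07 and 1.11 on that array and by -0.03 and -0.06 on slide 2, so they turned without it.

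The direction of the clade B genes changed in the alternative with normexp correction and the offset of 50, and the parts of the correction and of the offset were not separated. There, 4 of the 10 were higher and the clade's median was -0.12, while the median of all genes moved to -0.11: Serpinb1a (1.10), Serpinb6a (0.59), Serpinb6b (0.41) and Serpinb6c (0.12) kept their direction, and the other six turned. Scaling to the median of each array, which moved the median of all genes from -0.02 to -0.26, left 9 of 10 higher (Serpinb3c turned to -0.07), and so did quantile normalization (Serpinb8 turned to -0.05).

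**Figure D3:**
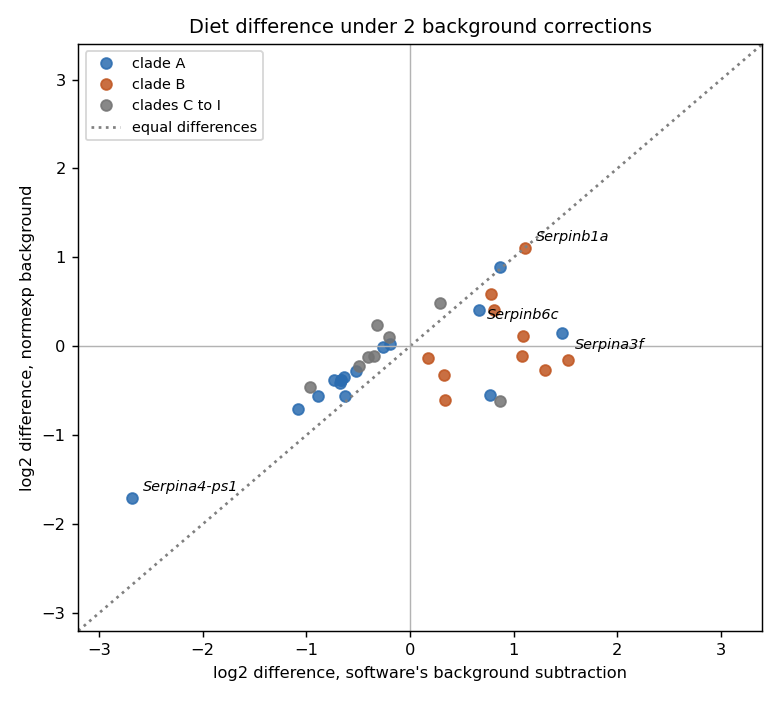
Log2 difference between the diets of the 34 serpin genes with the background subtracted by the scanner software (x axis) and with normexp correction and an offset of 50 (y axis); points are genes, colored by clade, and the dotted line marks equal differences. Serpina4-ps1 stays far below 0 (-2.68 and -1.71) and Serpinb1a above it (1.11 and 1.10), whereas Serpinb1b turns from 1.52 to -0.15.

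Serpinh1 (Hsp47), the chaperone of newly made collagen, differed by 0.29 (standard error 0.20) with overlap, and Serpini2 by 0.87 (standard error 0.34) with overlap, well above background on 1 normal chow array; with a normexp background Serpini2 turned to -0.61. The 19 serpin genes not kept were Serpina12, Serpina1f, Serpina3a, Serpina5, 14 clade B genes (Serpinb2, Serpinb3a, Serpinb3b, Serpinb3d, Serpinb5, Serpinb7, Serpinb9b, Serpinb9c, Serpinb9d, Serpinb9g, Serpinb10, Serpinb11, Serpinb12 and Serpinb13) and Serpini1. Of their 25 probes, 15 were not well above background on any array. Agt, angiotensinogen, is a serpin under another name and differed by -0.15 with overlap. Another is Serpine3, named E130113E03Rik on the array, which differed by -0.42 without overlap. It was well above background on 2 normal chow arrays and on all 3 high-Chol arrays.

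Most clade A genes lie side by side on chromosome 12. In mm7, 24 probes of 19 serpin genes spanned chr12:101109198-101908089 (798.9 kb), and 15 of these genes were kept. The nearest kept serpin genes to Serpina4-ps1 were Serpina9 at -84.5 kb (-1.08) and Serpina3b at 57.6 kb (0.77), against its own difference of -2.68. Between them, the probes of Serpina12, Serpina5 and Serpina3a were not kept. The brighter Serpina5 probe, at 24.8 kb, differed by -1.59 without overlap, but was well above background on 2 normal chow arrays and 1 high-Chol array only. The kept serpin genes before Serpina4-ps1 were all lower, by -0.19 to -1.08, whereas those after it went both ways.

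**Figure D4:**
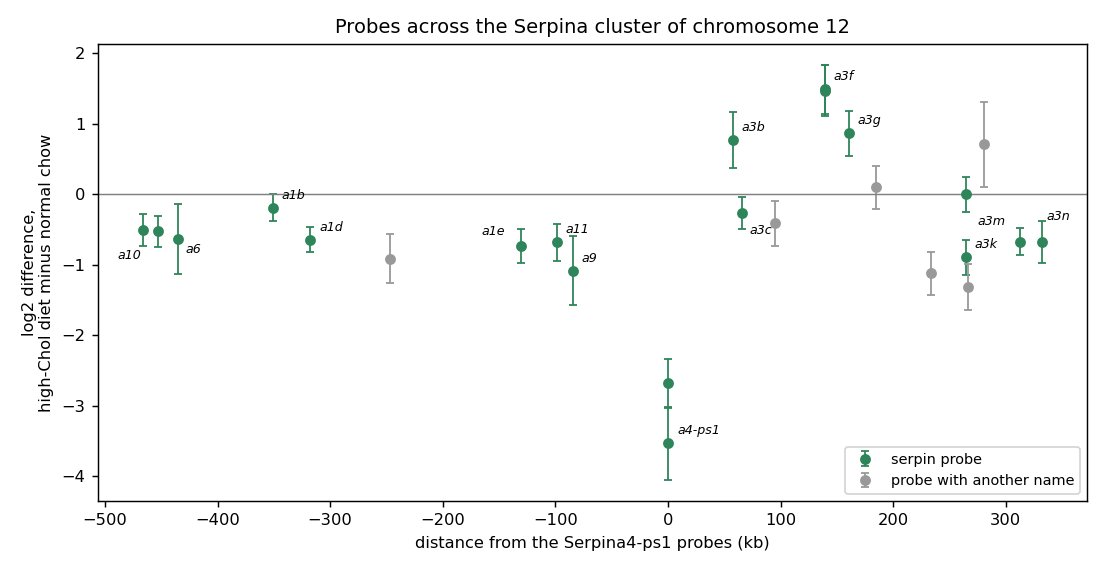
Log2 difference between the diets (y axis, standard errors from the fit of every probe) against the distance in kb from the Serpina4-ps1 probes (x axis) for kept probes of the Serpina cluster; green points are serpin probes, labeled without "Serpin", and gray points carry other names. The Serpina4-ps1 probes (-2.68 and -3.53) lie below all others.

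Genes that act with the serpins were taken from lists. These lists, and the cell markers below, were chosen with earlier results of these data known. Their differences, calls and p-values are therefore given as a description. Of 27 kept target proteases, limma called 1 as higher and 0 as lower, against 2.69% and 0.227% of all genes. The median difference was -0.28, with 8 genes higher and 19 lower. Without overlap, 3 were higher and 16 lower, against 11.6% and 13.7% of all genes. Gzma and Gzmm, both higher, were, like Plau, kept through the high-Chol diet alone. The called gene was Plau, urokinase, the plasminogen activator (limma adjusted p = 0.00628). It was kept through the high-Chol diet alone: it read -3.98, -3.27 and -3.49 there and was not well above background on any normal chow array, which makes it at least 1.97-fold higher. That bound sets the high-Chol mean against the lowest signal well above background on each normal chow array. Plg, plasminogen, differed by -0.49 and Plat, the tissue plasminogen activator, by 0.33 (limma adjusted p = 0.211 and 0.298). Of 13 cofactors and receptors 1 was called, Plaur, the urokinase receptor, which rose from -3.02 to -0.45 (difference 2.57, limma adjusted p = 0.0091). The list's median was -0.36.

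All 9 kept collagen genes, whose products Serpinh1 folds, were above 0, but Col5a2 (0.88) was kept only through the high-Chol diet, where it was higher, and the filter on all 6 arrays leaves 8. Limma called 1, Col1a1 (1.04, limma adjusted p = 0.0257). None of the 9 hormone partners and none of the 14 regulators, among them Hnf4a and Cebpa, was called by limma, and 3 genes of each list had an unadjusted p under 0.05, against 21.2% of all genes. Of the 20 acute-phase genes 2 were called, Lcn2 (4.03, limma adjusted p = 0.0053) and Il1rn (2.44, limma adjusted p = 0.00628), and the median was -0.09. Over all genes 2.69% were called as higher. Without overlap, 7 acute-phase genes were higher and 4 lower, against 11.6% and 13.7% of all genes. Among the 7 were Saa1 (2.43), Saa2 (2.41), Saa3 (2.93) and Lbp (0.76), while 11 of the 20 genes were below 0. In each of these lists the calls went to 0 with a normexp background, and likewise when slide entered the fit as a block. The calls of Plau and Plaur were also lost without normal chow array 2, when 0.251% of all genes were called, and without the filter, and Plau does not pass a filter on all 6 arrays. The call of Col1a1 was lost with median scaling, the mean of probes and no filter, and when normal chow array 2 or 3 or either array of slide 2 was left out. Acute-phase calls went to 1 without normal chow array 2 or without the filter, and without normal chow array 1 they went to 5 and the collagen calls to 2. With slide 1's high-Chol array left out, when 18.4% of all genes were called, calls went to 10 target proteases, 6 acute-phase genes, 3 cofactors and receptors, 3 collagens, 2 hormone partners and 1 regulator, so the rise in calls was general.

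Markers of macrophages and neutrophils were among the genes that limma called. Over all genes, 2.69% were called as higher and 0.227% as lower, and 21.2% had an unadjusted p under 0.05. All 7 kept macrophage markers were above 0 and 3 were called (Cd68, Marco and Cd5l), and their summed signal, in units of the 75th percentile, was 110 to 125 with normal chow, against 252 to 296 with the high-Chol diet. The bright Cd5l (difference 1.42) and Marco (1.83) carry most of this sum, and Csf1r, Clec4f and Vsig4 differed by 0.28, 0.41 and 0.58. All 4 kept neutrophil markers were above 0, but Ltf was kept only through the high-Chol diet, where it was higher, and Mpo (0.48) overlapped. Limma called 2 of the 4 (S100a8 and S100a9). The summed signal of the 4 was 1.58 to 1.78 with normal chow, against 9.5 to 15.7 with the high-Chol diet. Elane, Cxcr2, Camp and Ngp, and the macrophage marker Itgam, were not kept, and Lyz2 and Ly6g were not matched to a probe. Of the neutrophil proteases listed as targets, Prtn3 differed by -0.69 without overlap and Ctsg by 0.50 with overlap. Limma called 1 of 7 markers of lymphocytes and NK cells (Nkg7), 1 of 9 of stellate cells and fibroblasts (Col1a1), 0 of 8 of endothelial cells and 0 of 4 of cholangiocytes (1 at an unadjusted p under 0.05 in both). With a normexp background, or when slide entered the fit as a block, none of these markers was called. The Nkg7 call was also lost with median scaling, quantile normalization and no filter, and when any array but slide 1's high-Chol one was left out. Macrophage calls went to 0 without the filter, and to 1 without normal chow array 3 or either array of slide 2. Without slide 1's high-Chol array, 18.4% of all genes were called. The markers called there were 5 lymphocyte and NK, 4 neutrophil, 3 macrophage, 2 stellate and fibroblast, 2 hepatocyte and 1 endothelial. Of 8 hepatocyte markers 7 were below 0 and 0 were called (2 at an unadjusted p under 0.05), and their summed signal was 2280 to 2680 with normal chow, against 1950 to 2040 with the high-Chol diet. The part of these cells in the differences of the clade B and clade A genes was not tested.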

How the data were processed

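Liver RNA was measured on 6 Agilent Whole Mouse Genome arrays, 3 per diet. The authors deposited the scanner output, spot intensity values from which the Agilent Feature Extraction software (9.1 in the methods; 9.5 per the file headers for slide 1) had subtracted the background, and a normalized table with a single log2 value for each diet and for each of 23458 probes. From the intensities, log2 signals minus the 75th percentile of each array were computed. Control spots and outlier spots were left out, and a gene was represented by its brightest probe. A gene was kept when well above background on all arrays of 1 diet. The comparison between diets used limma 3.58.1 (R 4.3.3; lmFit, eBayes, Benjamini-Hochberg, threshold 0.05) over 16730 genes; the fit was tested on simulated data. Plots used matplotlib 3.10.9. The number of arrays limits the precision: an exact permutation test of 3 against 3 cannot go below p = 0.1. p-values measure the spread between these arrays, called independent experiments by the labels.

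Members and lists were chosen with earlier results of these data known. The positions and sequences of some probes and 1 serpin gene are not reported here, and that gene is in none of the family's counts. Of 142 list genes, 140 were matched to the array, by name or by accession through RefSeq. Values on each array are given for Serpina4-ps1 and for members that limma called or that differed by over 1.5-fold without overlap; the per-array values of Serpina6 and of the dimmer Serpina3k probe were added after they were seen. Alternatives were a normexp background (offset 50), median scaling (floor 5), quantile normalization, 2 other filters, the mean of probes, every probe, each array left out, a block for slide, the methods' t-test and the deposited values.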

Additional observations from a re-analysis of the deposited data

How the results depend on the processing

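Limma called 2 serpin genes, and 1 with median scaling, 0 with a normexp background, no filter or slide as a block (2, 21 and 13 at an unadjusted p under 0.05, against 1.88, 11.4 and 9.1% of all genes). Those settings called 0, 26 and 11 of all genes, so the lost calls are not particular to the serpins. The calls were 0 to 13 when an array was left out; the 13 came with slide 1's high-Chol array removed, when calls over all genes went from 488 to 3077, and the 0 without normal chow array 2 (16 at an unadjusted p under 0.05; 42 of all genes called), and 1 without normal chow array 1, normal chow array 3 or the array at position 2 of slide 2. The methods' t-test gave 15 at an unadjusted p under 0.05 (16.7% of all genes) and 0 after Benjamini-Hochberg adjustment (5 of all genes). The count without overlap, 20, was 5 with a normexp background and 15 to 19 under the other scalings, the filter on all 6 arrays and the mean of probes. It was 22 of 53 genes without the filter and 25 of 42 over every probe. With an array left out it was 20 to 25, but fewer arrays make a lack of overlap easier for any gene. In the main setting 11.6% of all genes were higher and 13.7% lower without overlap, and the shares under the alternatives are not given. The median difference of -0.20 lay between -0.45 (deposited values, 33 genes) and -0.02 (no filter, 53 genes). Serpina4-ps1 was lower under every alternative run: -1.71 with a normexp background, -3.53 on its other probe, and -2.97 to -2.44 when an array was left out. It was not called with a normexp background, no filter, slide as a block, the methods' t-test after adjustment or without normal chow array 2. Serpinb6c lost its call under the same alternatives, with median scaling, and when any array but slide 1's high-Chol one was left out. The cause of these shifts was not tested. Spots well above background made up 50.5 to 67.2% of an array, which limits what can be said of members near background. No paired analysis was possible because the labels do not tell which array carries which replicate number.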
